A study of Mus musculus with 16 samples.

Results

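Astrocytes keep the fluid around neurons low in potassium and glutamate, and the 9 genes described here encode the main parts of that machinery together with 1 general astrocyte marker. They were chosen by name, as rows of the deposited count table whose gene symbol was Slc1a2, Slc1a3, Glul, Kcnj10, Atp1b2, Aqp4, Gja1, Gjb6 or Aldh1l1. The table holds 49315 genes, of which 17469 had enough counts to be tested, and all 9 were among them. RNA was sequenced from the hippocampi of 16 mice, 4 in each of 4 groups that crossed genotype with diet. The groups were wild type on a standard diet, Kcna1 knockout on a standard diet, wild type on a ketogenic diet and Kcna1 knockout on a ketogenic diet. Kcna1 encodes a potassium channel of axons that opens with voltage, mice without it have seizures, and a ketogenic diet is rich in fat and poor in carbohydrate. The title of the series concerns astrogliosis, the state in which astrocytes raise the filament protein GFAP. The strain, the age and sex of the animals, the deleted part of Kcna1 and the length of the diets were not given in the sources used here.

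A firing neuron releases potassium and, at an excitatory synapse, glutamate. Astrocytes take up glutamate through the transporters GLT-1 (Slc1a2) and GLAST (Slc1a3) and turn it into glutamine with glutamine synthetase (Glul), while potassium enters through the channel Kir4.1 (Kcnj10) and the sodium-potassium pump, whose glial beta subunit is Atp1b2. Water follows through aquaporin-4 (Aqp4), which sits beside Kir4.1 on the endfeet around blood vessels, and connexin 43 (Gja1) and connexin 30 (Gjb6) join astrocytes into a network through which ions and metabolites spread. Aldh1l1, a folate enzyme, is used as a marker of astrocytes in general.

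The 250 bases before the start of Slc1a3, Gja1 and Gjb6 are shown because these 3 genes had the smallest p-values between the diets in the knockout, with lower levels on the ketogenic diet. They are RefSeq sequences on GRCm38.p6, written 5′ to 3′ on the strand of the gene, from chr15:8710808-8711057 (minus strand) for Slc1a3, chr10:56377050-56377299 (plus strand) for Gja1 and chr14:57133612-57133861 (minus strand) for Gjb6. Capitals mark matches on either strand to the STAT motif TTCNNNGAA, the AP-1 motif TGANTCA or the NFI half-site TTGGCA.
Slc1a3: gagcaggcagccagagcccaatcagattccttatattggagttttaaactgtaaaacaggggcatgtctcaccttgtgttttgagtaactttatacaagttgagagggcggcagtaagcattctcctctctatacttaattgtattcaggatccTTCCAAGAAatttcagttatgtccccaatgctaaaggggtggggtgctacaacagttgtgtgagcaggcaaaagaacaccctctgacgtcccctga
Gja1: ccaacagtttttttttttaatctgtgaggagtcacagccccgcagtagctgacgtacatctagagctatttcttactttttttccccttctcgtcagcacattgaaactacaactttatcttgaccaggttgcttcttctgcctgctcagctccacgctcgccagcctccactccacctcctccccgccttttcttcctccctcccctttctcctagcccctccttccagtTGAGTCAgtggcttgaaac
Gjb6: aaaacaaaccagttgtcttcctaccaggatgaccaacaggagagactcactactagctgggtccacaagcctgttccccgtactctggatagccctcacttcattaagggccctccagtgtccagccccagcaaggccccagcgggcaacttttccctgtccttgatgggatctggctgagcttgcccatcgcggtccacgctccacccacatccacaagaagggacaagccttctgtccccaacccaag
Slc1a3 held 1 STAT match, Gja1 held 1 AP-1 match, and Gjb6 held none of the 3 motifs. Of 32851 promoters of this length, 7.02% held the STAT motif, 6.75% the AP-1 motif and 12.3% the NFI half-site. Windows were read for 7 of the 9 genes, and the other 4 of these (Slc1a2, Glul, Kcnj10 and Aldh1l1) held none of the 3 motifs. The windows of Slc1a2 (chr2:102706188-102706437) and Aldh1l1 (chr6:90550543-90550792) lie inside the gene spans given below. For these 2 genes the bases before the outermost start were not searched. A match describes the letters in this window and not a bound site.

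Total counts ran from 13440230 to 22309504 per library, so each of the 9 genes had at least 504 counts in every library. Prox1, Wfs1, Zbtb20 and Neurod6, which are abundant in hippocampal neurons, were detected in all 16 libraries, between 65.0 and 652 CPM (read counts scaled to the size of each library). Kcna1 lay between 107 and 130 CPM in wild type and between 43.4 and 47.2 CPM in 7 of the 8 knockout libraries, and it was 82.0 CPM in the library labelled knockout KC888LL. The genotype of that library is therefore in doubt, it was kept under its label, and every value for the knockout on the standard diet includes it unless the text says otherwise. Y-linked Ddx3y was above 10 CPM in 1 wild type library of each diet (KC890RL and KC846L) and in KC872RL and KC873RR of the knockout on the standard diet, while the other 12 libraries were below that level. The oligodendrocyte markers, 12 genes, summed to between 5327 and 5900 CPM in the knockout on the standard diet and to between 2058 and 3868 CPM in the knockout on the ketogenic diet, against 4286 to 6676 CPM and 3539 to 4510 CPM in wild type on the same diets. Microglial markers, also 12 genes, summed to 624 CPM in KC872RL and 630 CPM in KC873RR, against 268 to 324 CPM in the other 14 libraries.

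Per kilobase of merged exons, Glul was the most abundant of the 9 genes, with a mean level of 389 RPKM over the 16 libraries. Slc1a2 followed at 226 RPKM, Atp1b2 at 95.4 RPKM, Slc1a3 at 69.2 RPKM and Kcnj10 at 39.7 RPKM, and then Aqp4 at 28.6 RPKM, Gja1 at 24.7 RPKM, Gjb6 at 19.0 RPKM and Aldh1l1 at 9.50 RPKM. The order of neighbours held in all 16 libraries for 5 of the 8 neighbouring pairs. Aqp4 exceeded Gja1 in 9 of 16 libraries, so the order of these 2 genes did not hold across libraries. It also depends on the merged exon lengths used. In CPM the mean of Gja1 was 253 and that of Aqp4 178. Glul exceeded Slc1a2, and Gja1 exceeded Gjb6, in 15 of 16 libraries, and both exceptions were KC913RR, a knockout library on the ketogenic diet. In the wild type the coefficient of variation over 8 libraries was between 3.59% for Atp1b2 and 16.4% for Aqp4. In the knockout it was larger for all 9 genes, from 8.18% for Atp1b2 to 45.0% for Aqp4. These values pool the diets, and within the diets it was again larger in the knockout, except for Gjb6 on the standard diet, at 15.5% in the knockout and 16.4% in wild type.

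**Figure D1:**
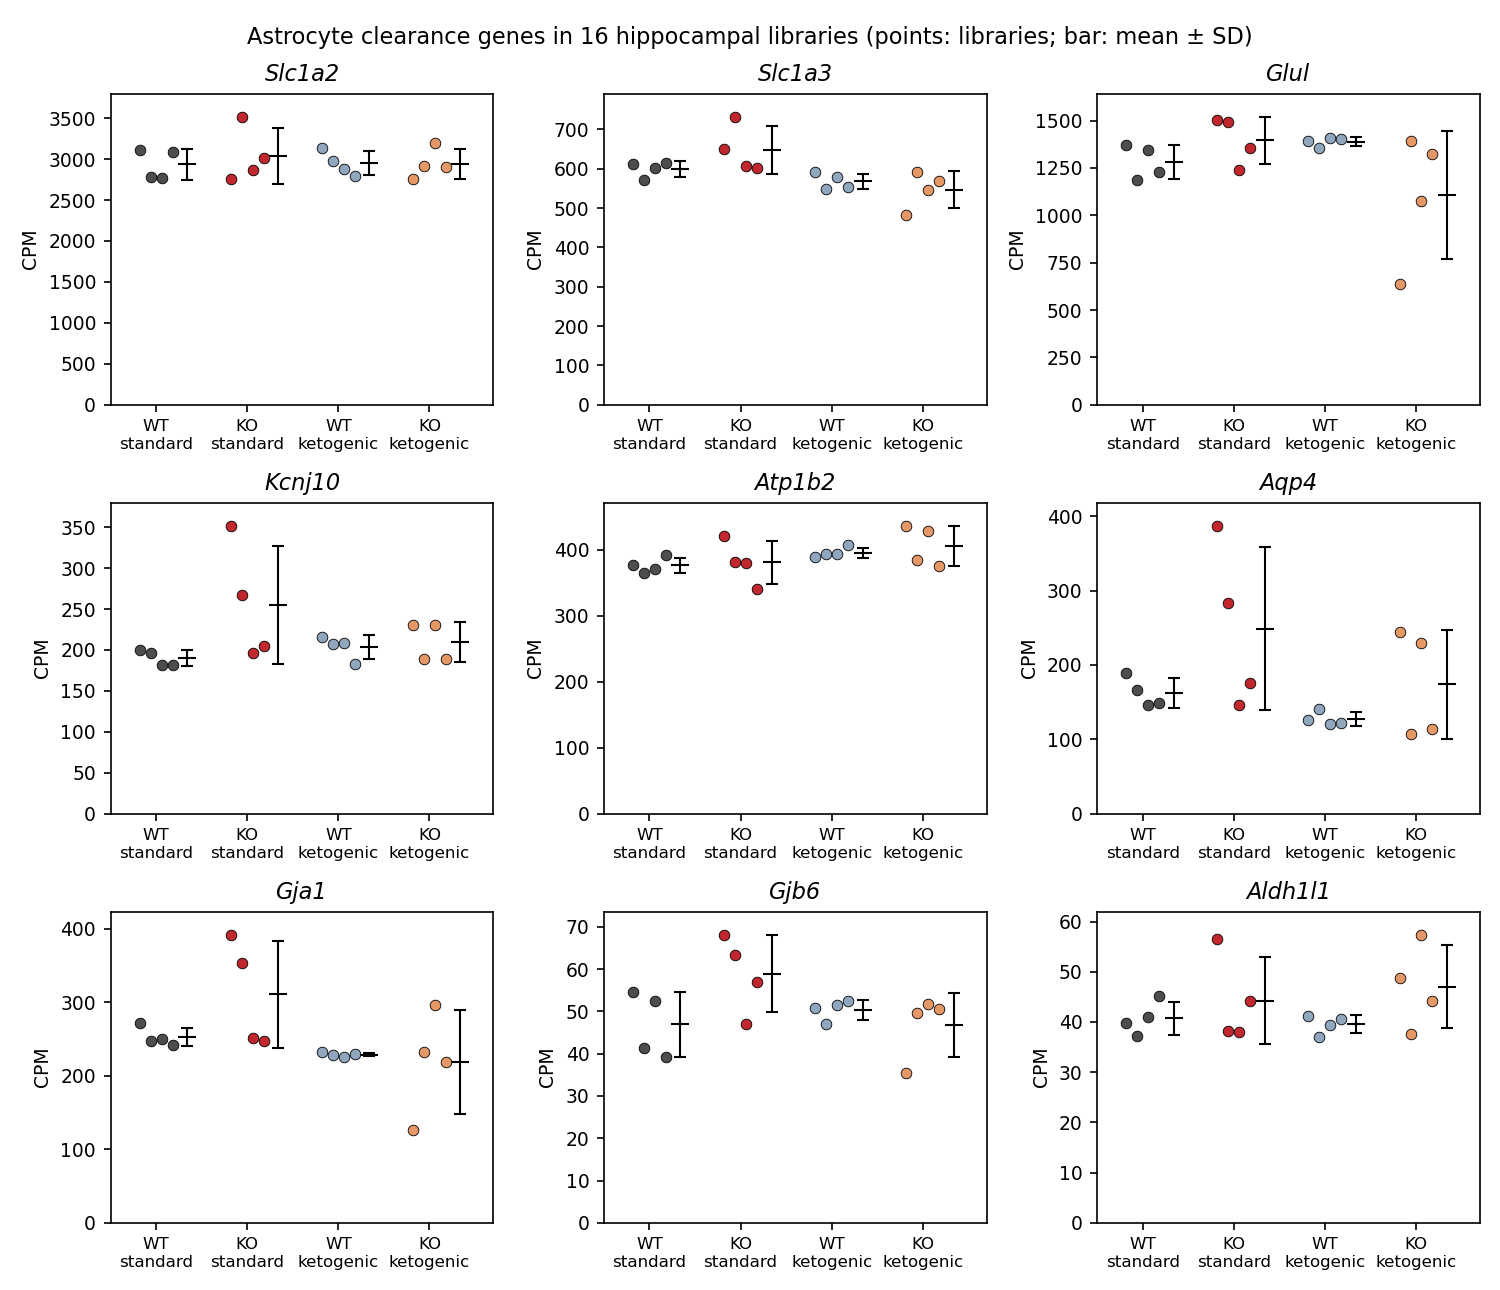
Level of each of the 9 genes in CPM (y axis, from 0) in the 4 groups (x axis), with 1 point per library and the mean ± SD of each group beside the points. The wild type points lie close together, while Aqp4 runs from 107 to 387 CPM and Glul from 640 to 1504 CPM among the knockout libraries.

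Slc1a2 (ENSMUSG00000005089, GRCm38 chromosome 2, 102658659 to 102790784, plus strand), the major glutamate transporter of the forebrain, kept to a narrow range. Its means on the standard diet were 2937 ± 190 CPM (SD, n = 4) for wild type and 3038 ± 337 CPM (SD, n = 4) for knockout, and on the ketogenic diet 2948 ± 147 CPM and 2943 ± 184 CPM (SD, n = 4 each). All 4 groups overlapped, and the highest library, KC873RR at 3520 CPM, was 1.28 times the lowest knockout library.

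Slc1a3 (ENSMUSG00000005360, GRCm38 chromosome 15, 8634124 to 8710764, minus strand) encodes the second glutamate transporter of astrocytes. Libraries labelled knockout on the standard diet ran from 601 CPM in KC893RL through 606 in KC888LL and 650 in KC872RL to 733 in KC873RR. Those on the ketogenic diet ran from 483 CPM in KC913RR through 545 in KC934R and 569 in KC935LL to 592 in KC916RRL. Every knockout library on the ketogenic diet was thus below every library labelled knockout on the standard diet, though the nearest pair was 592 and 601 CPM. The wild type groups measured 600 ± 20.0 CPM (SD, n = 4) for the standard diet, against 568 ± 19.4 CPM (SD, n = 4) on the ketogenic diet, and they overlapped.

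Glul (ENSMUSG00000026473, GRCm38 chromosome 1, 153899944 to 153909723, plus strand), the glutamine synthetase, is made in astrocytes and also in oligodendrocytes. Among knockout libraries on the ketogenic diet it ran from 640 CPM in KC913RR through 1075 in KC934R and 1321 in KC935LL to 1392 in KC916RRL. The other 12 libraries lay between 1186 and 1504 CPM, so KC913RR and KC934R were the lowest of all 16. KC913RR held 0.480 of the mean level of the wild type libraries, and KC934R 0.807. These 2 libraries also had the lowest sums of oligodendrocyte markers, 2058 and 2768 CPM, and the part of those cells in the Glul level was not tested.

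Kcnj10 (ENSMUSG00000044708, GRCm38 chromosome 1, 172341210 to 172374085, plus strand) encodes Kir4.1, the channel through which astrocytes buffer potassium. Wild type libraries on the standard diet lay at 182 CPM in KC897RR and in KC900RLL, 197 in KC894RLL and 201 in KC890RL. Libraries labelled knockout on that diet lay at 196 CPM in KC888LL, 204 in KC893RL, 267 in KC873RR and 352 in KC872RL. KC872RL and KC873RR were well above every wild type library, and KC888LL lay within the wild type range. On the ketogenic diet wild type measured 204 ± 14.5 CPM (SD, n = 4) and knockout 210 ± 24.2 CPM (SD, n = 4), with KC913RR and KC934R both at 231 CPM and the other 2 knockout libraries both at 189 CPM. Atp1b2 (ENSMUSG00000041329, GRCm38 chromosome 11, 69599736 to 69605942, minus strand), the pump subunit, stayed between 341 and 437 CPM in all 16 libraries, and its 4 groups overlapped.

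Aqp4 (ENSMUSG00000024411), the water channel of the endfeet, had the highest ratio of highest to lowest library among the 9 genes in the knockout, 3.61. On the standard diet the libraries labelled knockout ran from 147 CPM in KC888LL through 176 in KC893RL and 284 in KC873RR to 387 in KC872RL, and wild type from 146 CPM in KC897RR through 149 in KC900RLL and 166 in KC894RLL to 190 in KC890RL. On the ketogenic diet the knockout ran from 107 CPM in KC916RRL through 115 in KC935LL and 230 in KC934R to 244 in KC913RR, and wild type from 121 CPM in KC844RR through 122 in KC846L and 126 in KC842L to 140 in KC843RL. In each diet 2 knockout libraries were above every wild type library, and on the ketogenic diet the other 2 were below every wild type library.

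Gja1 (ENSMUSG00000050953, GRCm38 chromosome 10, 56377330 to 56402513, plus strand) encodes connexin 43. Libraries labelled knockout had 248 CPM in KC893RL, 251 in KC888LL, 353 in KC873RR and 392 in KC872RL on the standard diet, and those on the ketogenic diet had 126 CPM in KC913RR, 219 in KC935LL, 232 in KC916RRL and 297 in KC934R. The 8 wild type libraries lay between 226 and 271 CPM, so 3 knockout libraries stood above and 2 stood below that range. Gjb6 (ENSMUSG00000040055, GRCm38 chromosome 14, 57123303 to 57133611, minus strand) encodes connexin 30. In the libraries labelled knockout it ran from 47.1 CPM in KC888LL through 57.0 in KC893RL and 63.4 in KC873RR to 68.2 in KC872RL on the standard diet, and from 35.5 CPM in KC913RR through 49.6 in KC916RRL and 50.5 in KC935LL to 51.8 in KC934R on the ketogenic diet. As for Gja1, KC872RL and KC873RR were the highest of the 16 libraries and KC913RR the lowest. Aldh1l1 (ENSMUSG00000030088, GRCm38 chromosome 6, 90486427 to 90600203, plus strand) stayed between 37.0 and 45.1 CPM in wild type and reached 57.4 CPM in KC934R and 56.6 CPM in KC872RL.

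The first comparison asks what the loss of Kcna1 changed on the standard diet. None of the 9 genes was called at an adjusted p under 0.05 in edgeR, where 1 of the 17469 tested genes (0.00572%) was called. DESeq2 also called 0 of the 9, and 1.01% of all tested genes. All 9 fold changes were above 0, against 51.1% of all tested genes, with a median log2 fold change of 0.12 against 0.0044 over all tested genes. At an unadjusted p under 0.05 there were 2 of the 9, Kcnj10 and Gjb6, and 14.3% of all tested genes met the same limit. The 4 libraries of each genotype overlapped for each of the 9 genes, while 5.86% of all tested genes had groups that did not overlap. In bulk RNA, a change in the number of astrocytes and a change in the RNA of each astrocyte cannot be told apart.

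On the standard diet Kcnj10 stood at 0.42 ± 0.15 (SE) on the log2 scale for the knockout over wild type (edgeR, unadjusted p = 0.0114, adjusted p = 0.232). Without the library labelled knockout KC888LL it was 0.52, and it was then called (edgeR, adjusted p = 0.0377), the 1 call among the 9 genes in a fit that called 5.73% of all tested genes. Without KC872RL it was 0.23, and among the libraries with Xist above 100 CPM, which leaves out KC872RL, KC873RR, KC890RL and KC846L, it was 0.10. Of the libraries labelled knockout on the standard diet, that set keeps only KC893RL and KC888LL, and the genotype of KC888LL is in doubt. Gjb6 stood at 0.33 ± 0.13 (SE) (edgeR, unadjusted p = 0.0250, adjusted p = 0.281) and Aqp4 at 0.61 ± 0.32 (SE), with a 95% confidence interval from -0.08 to 1.30 (edgeR, adjusted p = 0.405). Without KC888LL they stood at 0.42 (edgeR, adjusted p = 0.0670) and 0.79 (edgeR, adjusted p = 0.163). Aqp4 stood at 0.32 without KC872RL and at 0.069 among the libraries with Xist above 100 CPM. Beside these values, all 12 microglial markers, 9 of the 10 endothelial markers and 13 of the 15 general astrocyte markers were above 0 in the same comparison, with median log2 fold changes of 0.59, 0.27 and 0.11 and 0 called. The part of any of these in the fold changes was not tested. For Slc1a2 the 95% confidence interval ran from -0.11 to 0.20, and for Atp1b2 from -0.12 to 0.15.

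On the ketogenic diet, 0 of the 9 genes were called between knockout and wild type in edgeR, with 0.0172% of all tested genes called, and DESeq2 called 0 of the 9 and 0.189% of all tested genes. None reached an unadjusted p under 0.05 in edgeR, a limit that 9.22% of all tested genes met, and 1 did in DESeq2, as did 9.39% of all tested genes there. No gene of the 9 had groups that did not overlap, compared with 3.98% of all tested genes. The fold changes were above 0 for 4 of the 9 genes, with a median of -0.0021. Aqp4 had the largest, at 0.45 ± 0.32 (SE) on the log2 scale (edgeR, adjusted p = 0.687), and Glul the lowest, at -0.33 ± 0.17 (SE) (edgeR, adjusted p = 0.573). Without KC913RR the Glul value was -0.14 and the Aqp4 value 0.25. Aldh1l1 stood at 0.25 ± 0.13 (SE) (edgeR, adjusted p = 0.564), and at 0.14 without KC934R. In the same comparison all 12 oligodendrocyte markers were below 0, with a median log2 fold change of -0.40. Of these, 6 had an unadjusted p under 0.05 in edgeR and 0 were called. All 5 tested blood genes were also below 0, while 9 of the 12 neuronal markers were above 0, with 0 called in either list. The part of these shifts in the 9 genes was not tested.

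**Figure D2:**
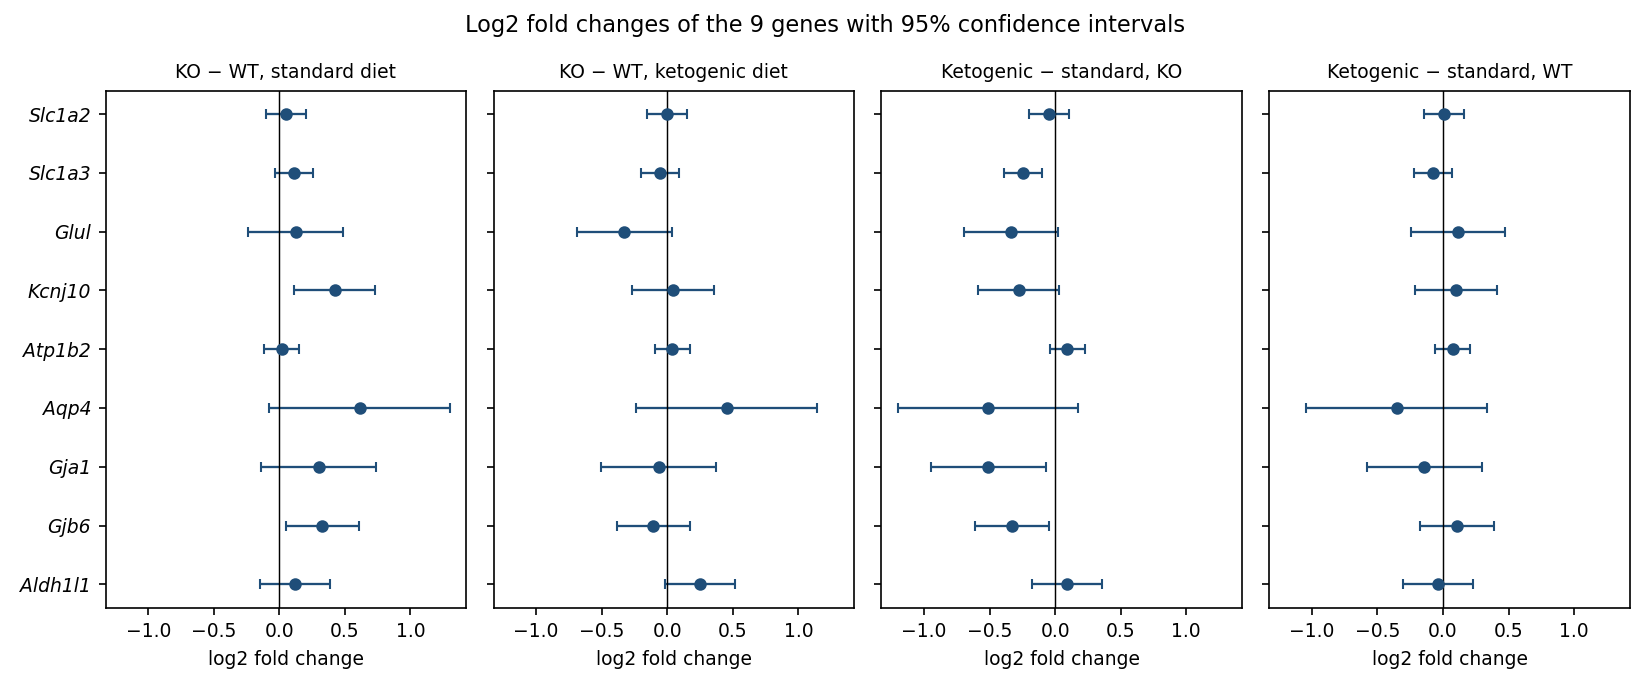
Log2 fold change (x axis) of each of the 9 genes (rows) in the 4 pairwise comparisons (panels), with points for the edgeR estimate and bars for the 95% confidence interval. The intervals of Kcnj10 and Gjb6 lie above 0 for genotype on the standard diet, those of Slc1a3, Gja1 and Gjb6 lie below 0 for diet in the knockout, and Aqp4 has the widest intervals.

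The effect of the ketogenic diet was then examined in the knockout. Again 0 of the 9 genes were called in edgeR, where 1.16% of all tested genes were, and 7 of the 9 fold changes were below 0. The median log2 fold change was -0.28, against 0.01 over all tested genes. An unadjusted p under 0.05 was found for 3 of the 9 genes (Slc1a3, Gjb6 and Gja1) and for 16.9% of all tested genes. That count was 5 of 9 without KC888LL, where 21.8% of all tested genes met the limit, 2 without KC913RR, with 14.4%, and 1 without KC873RR, with 12.9%. Slc1a3 was the 1 gene of the 9 whose groups did not overlap, as was the case for 6.39% of all tested genes. The standard errors for this comparison come from a spread shared with the wild type groups. Those groups were less variable, except for Gjb6 on the standard diet. When only the 2 knockout groups were fitted, 9 of 16824 tested genes and 0 of the 9 genes described here were called.

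Slc1a3, whose promoter with 1 STAT match is printed above, stood at -0.24 ± 0.07 (SE) on the log2 scale between the diets in the knockout (edgeR, unadjusted p = 0.00224, adjusted p = 0.0904). It was called in DESeq2 at the same log2 fold change (adjusted p = 0.0272), the 1 call among the 9 genes where DESeq2 called 3.88% of all tested genes. In edgeR without KC888LL it was called at -0.27 (adjusted p = 0.0355), again the 1 call among the 9, with 6.18% of all tested genes called. Gjb6 stood at -0.33 ± 0.13 (SE) (edgeR, unadjusted p = 0.0242, adjusted p = 0.223) and Gja1 at -0.51 ± 0.20 (SE) (edgeR, unadjusted p = 0.0262, adjusted p = 0.229). Both depended in size on 1 library, since without KC913RR they stood at -0.22 and -0.32. Aqp4 was at -0.51 ± 0.32 (SE), Glul at -0.34 ± 0.17 (SE) and Kcnj10 at -0.28 ± 0.15 (SE), none with an adjusted p under 0.3. Without KC872RL the Aqp4 value was -0.21 and the Kcnj10 value -0.08, and without KC913RR the Glul value was -0.15. Among the libraries with Xist above 100 CPM the values of Aqp4 and Kcnj10 turned to 0.11 and 0.07, and those of Slc1a3, Gja1 and Gjb6 were -0.14, -0.19 and -0.15. That set keeps only KC893RL and KC888LL, of doubtful genotype, for the knockout on the standard diet. Over all alternatives the adjusted p of Slc1a3 ran from 0.0272 to 0.843. In the same comparison in edgeR, 1.16% of all tested genes were called and 51.5% were above 0. All 12 oligodendrocyte markers were below 0 and 9 of them were called. All 12 microglial markers were below 0 with 0 called, and 9 of the 15 general astrocyte markers were below 0 with 1 called. The part of these shifts in the 9 genes was not tested.

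In wild type the diet gave 0 calls among the 9 genes in edgeR, with 0.0114% of all tested genes called, and 0 in DESeq2, with 0.0687% called. An unadjusted p under 0.05 was found for 0 of the 9 genes in both tools, and for 5.46% of all tested genes in edgeR and 5.24% in DESeq2. The groups did not overlap for 2 of the 9 genes, Aqp4 and Gja1, and for 4.88% of all tested genes. Aqp4 ran from 121 to 140 CPM on the ketogenic and from 146 to 190 CPM on the standard diet, which gave -0.36 ± 0.32 (SE) on the log2 scale (edgeR, adjusted p = 0.993). Gja1 ran from 226 to 232 CPM on the ketogenic and from 243 to 271 CPM on the standard diet, at -0.14 ± 0.20 (SE) (edgeR, adjusted p = 0.998). These standard errors come from a spread shared with the more variable knockout groups. In the same comparison all 12 oligodendrocyte markers were below 0, with a median log2 fold change of -0.49, 11 of them at an unadjusted p under 0.05 and 0 called, and their part in these values was not tested. When only the 2 wild type groups were fitted, 0 of the 9 genes and 0.0661% of all tested genes were called, and 3 of the 9 had an unadjusted p under 0.05, as did 8.42% of all tested genes.

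The test of whether the genotype effect differed between the diets called 0 of the 9 genes in edgeR and 0 in DESeq2, and 0.0% of all tested genes in edgeR and 0.0401% in DESeq2. At an unadjusted p under 0.05 there was 1 of the 9 in edgeR and 7.48% of all tested genes, and in DESeq2 2 of the 9 and 7.53% of all tested genes. The gene in edgeR was Gjb6, with an interaction of -0.43 ± 0.19 (SE) on the log2 scale (edgeR, unadjusted p = 0.0347, adjusted p = 0.654). For the genotype averaged over the diets, 0 of the 9 were called, and 0.0973% of all tested genes were, in edgeR. Aqp4, at 0.53 ± 0.22 (SE), and Kcnj10, at 0.23 ± 0.10 (SE), were the 2 genes at an unadjusted p under 0.05 (edgeR, adjusted p = 0.274 and 0.289), a limit met by 15.8% of all tested genes. Without KC872RL the Kcnj10 value was 0.14, and among the libraries with Xist above 100 CPM it was 0.048 and that of Aqp4 0.25. Averaged over the genotypes, the diet again gave 0 calls among the 9 in edgeR, with 0.899% of all tested genes called. Slc1a3, at -0.16 ± 0.05 (SE) (edgeR, adjusted p = 0.134), and Gja1, at -0.33 ± 0.14 (SE) (edgeR, adjusted p = 0.319), reached an unadjusted p under 0.05, along with 14.4% of all tested genes. Over all alternatives these values ran from -0.18 to -0.10 for Slc1a3 and from -0.42 to -0.15 for Gja1. DESeq2 called 0 of the 9 in both averaged comparisons, and 2.38% of all tested genes for genotype and 2.47% for diet.

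Over the 8 libraries of each genotype, the coefficient of variation was larger in the knockout for all 9 genes. Each library labelled knockout was therefore set against the mean of the 8 wild type libraries. KC872RL was above that mean for 8 of the 9 genes, with a median log2 difference of 0.49, and Aqp4 reached 2.70 times and Kcnj10 1.79 times the wild type mean. KC873RR was above it for 7 of 9, with Aqp4 at 1.98 times and Gja1 at 1.47 times. KC893RL was above it for 8 of 9, with a median log2 difference of 0.04, and KC934R for 7 of 9, with a median of 0.15, Aqp4 at 1.60 times and Glul at 0.807 of the mean. The wild type libraries themselves were above the mean for 3 to 7 of the 9 genes, with medians between -0.08 and 0.07. KC913RR was split: Aqp4 stood at 1.70 times and Kcnj10 at 1.18 times the wild type mean, but Glul stood at 0.480, Gja1 at 0.525, Gjb6 at 0.734 and Slc1a3 at 0.828 of it. KC872RL, KC873RR and KC913RR had Gfap, the filament gene of astrogliosis, at 3.99 to 6.93 times the wild type mean, KC934R at 3.15 times and KC893RL at 1.82 times. The library labelled knockout KC888LL, and KC916RRL and KC935LL on the ketogenic diet, had median log2 differences between -0.04 and -0.01, and Gfap within or just below the wild type range of 294 to 390 CPM. KC913RR also had the lowest sum of the 15 general astrocyte markers (2144 CPM) and of the 12 oligodendrocyte markers of all libraries.

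**Figure D3:**
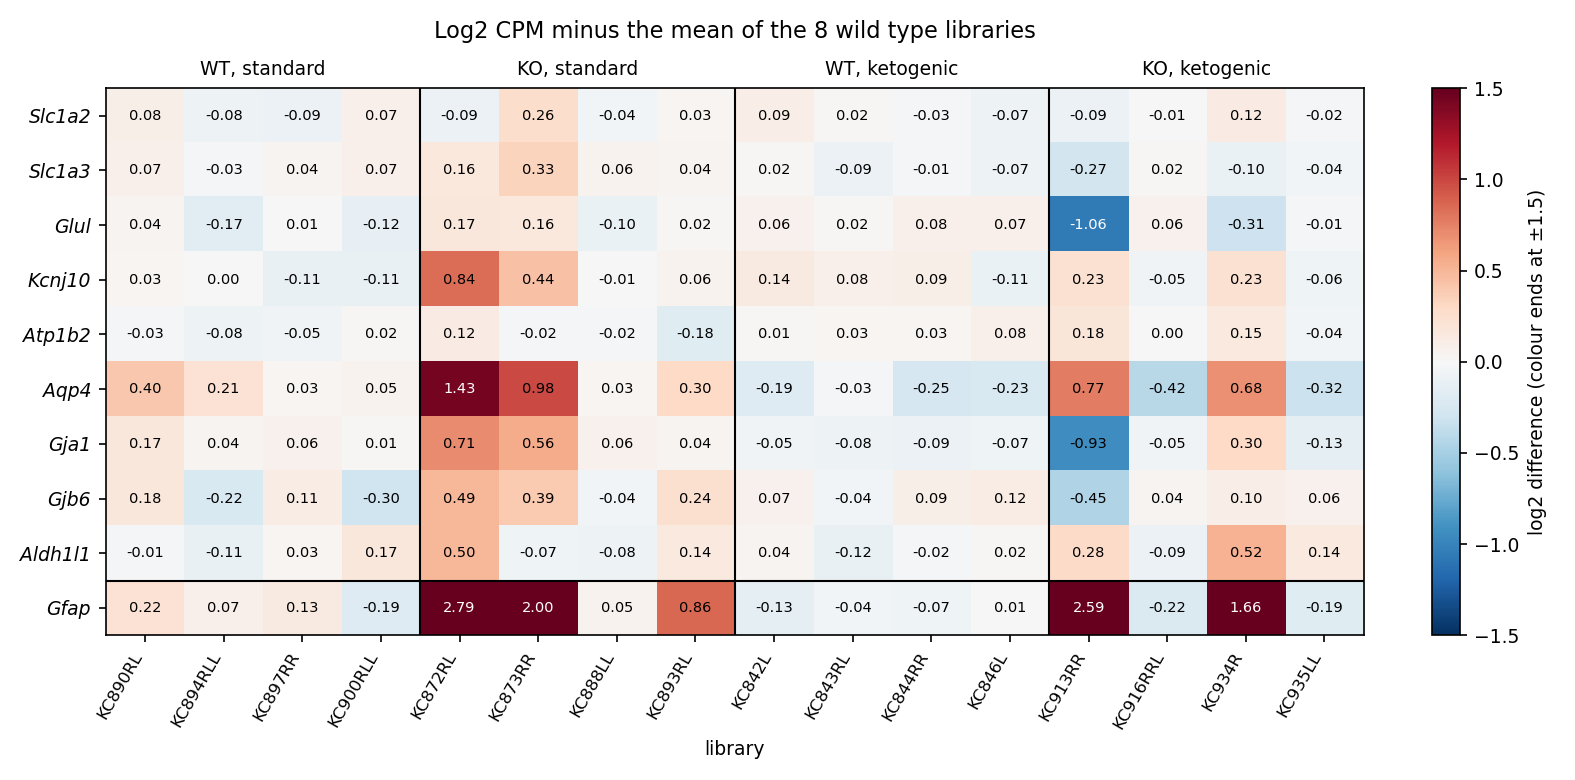
Log2 CPM of each of the 9 genes and of Gfap (rows) in each library (columns, by group) minus the mean of the 8 wild type libraries, with the value in each cell and colours that end at 1.5 in both directions. KC872RL and KC873RR are red for most genes, while KC913RR is red for Aqp4 and Kcnj10 and blue for Glul (-1.06), Gja1 (-0.93) and Gjb6 (-0.45).

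Because Gfap ranged from 288 to 2327 CPM over the 8 knockout libraries, the 9 genes were set against it there, on the log2 CPM scale and with exact permutation p-values over all 40320 pairings. Aqp4 had a Pearson r of 0.96 (exact permutation p = 0.000471, 0.119 after Benjamini-Hochberg adjustment over all tested genes) and a Spearman rho of 0.98. Kcnj10 had an r of 0.86 (exact permutation p = 0.00139, adjusted 0.133) and a rho of 0.95. These were the 2 of the 9 genes at an unadjusted p under 0.05, a limit that 14.0% of all tested genes met, and 0.0% of all tested genes passed after adjustment. Both relations held without KC872RL and KC916RRL, the 2 libraries farthest from the median Gfap, with r of 0.94 for Aqp4 and 0.85 for Kcnj10. Without KC888LL, whose genotype is in doubt, r was 0.96 for Aqp4 (exact permutation p = 0.00179) and 0.84 for Kcnj10 (exact permutation p = 0.0103). Within the diets, as deviations from the mean of each diet group, r was 0.98 for Aqp4 and 0.87 for Kcnj10, and over the 6 knockout libraries without Y-linked expression it was 0.95 and 0.96.

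The remaining 7 genes had r between -0.34 for Glul and 0.63 for Aldh1l1 with Gfap over the knockout libraries. Their exact permutation p-values ran from 0.0994 upward. Without KC873RR, Aldh1l1 had an r of 0.82 (exact permutation p = 0.0321). For the connexins the value depended on single libraries, with r of -0.18 for Gja1 and -0.20 for Gjb6 without KC872RL. Gja1 had an r of 0.14 (exact permutation p = 0.773) and Gjb6 0.14 (exact permutation p = 0.746), but without KC913RR they had 0.96 (exact permutation p = 0.000794) and 0.88 (exact permutation p = 0.0117). Without that library Slc1a3 went from 0.02 to 0.51 (exact permutation p = 0.257) and Glul from -0.34 to 0.25 (exact permutation p = 0.597). Over the 6 knockout libraries without Y-linked expression, a set that keeps KC913RR, r was -0.85 for Slc1a3 (exact permutation p = 0.0347), -0.88 for Glul (exact permutation p = 0.0153), -0.52 for Gja1 (exact permutation p = 0.303) and -0.58 for Gjb6 (exact permutation p = 0.225). In wild type, where Gfap had a narrow range, Gja1 had an r of 0.72 (exact permutation p = 0.0425, adjusted 0.988), Aqp4 0.63 (exact permutation p = 0.0916) and Kcnj10 -0.15. An unadjusted p under 0.05 was found there for 4.88% of all tested genes. Without the 2 wild type libraries farthest from the median Gfap, r was 0.83 for Gja1, 0.67 for Aqp4 and -0.84 for Kcnj10.

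**Figure D4:**
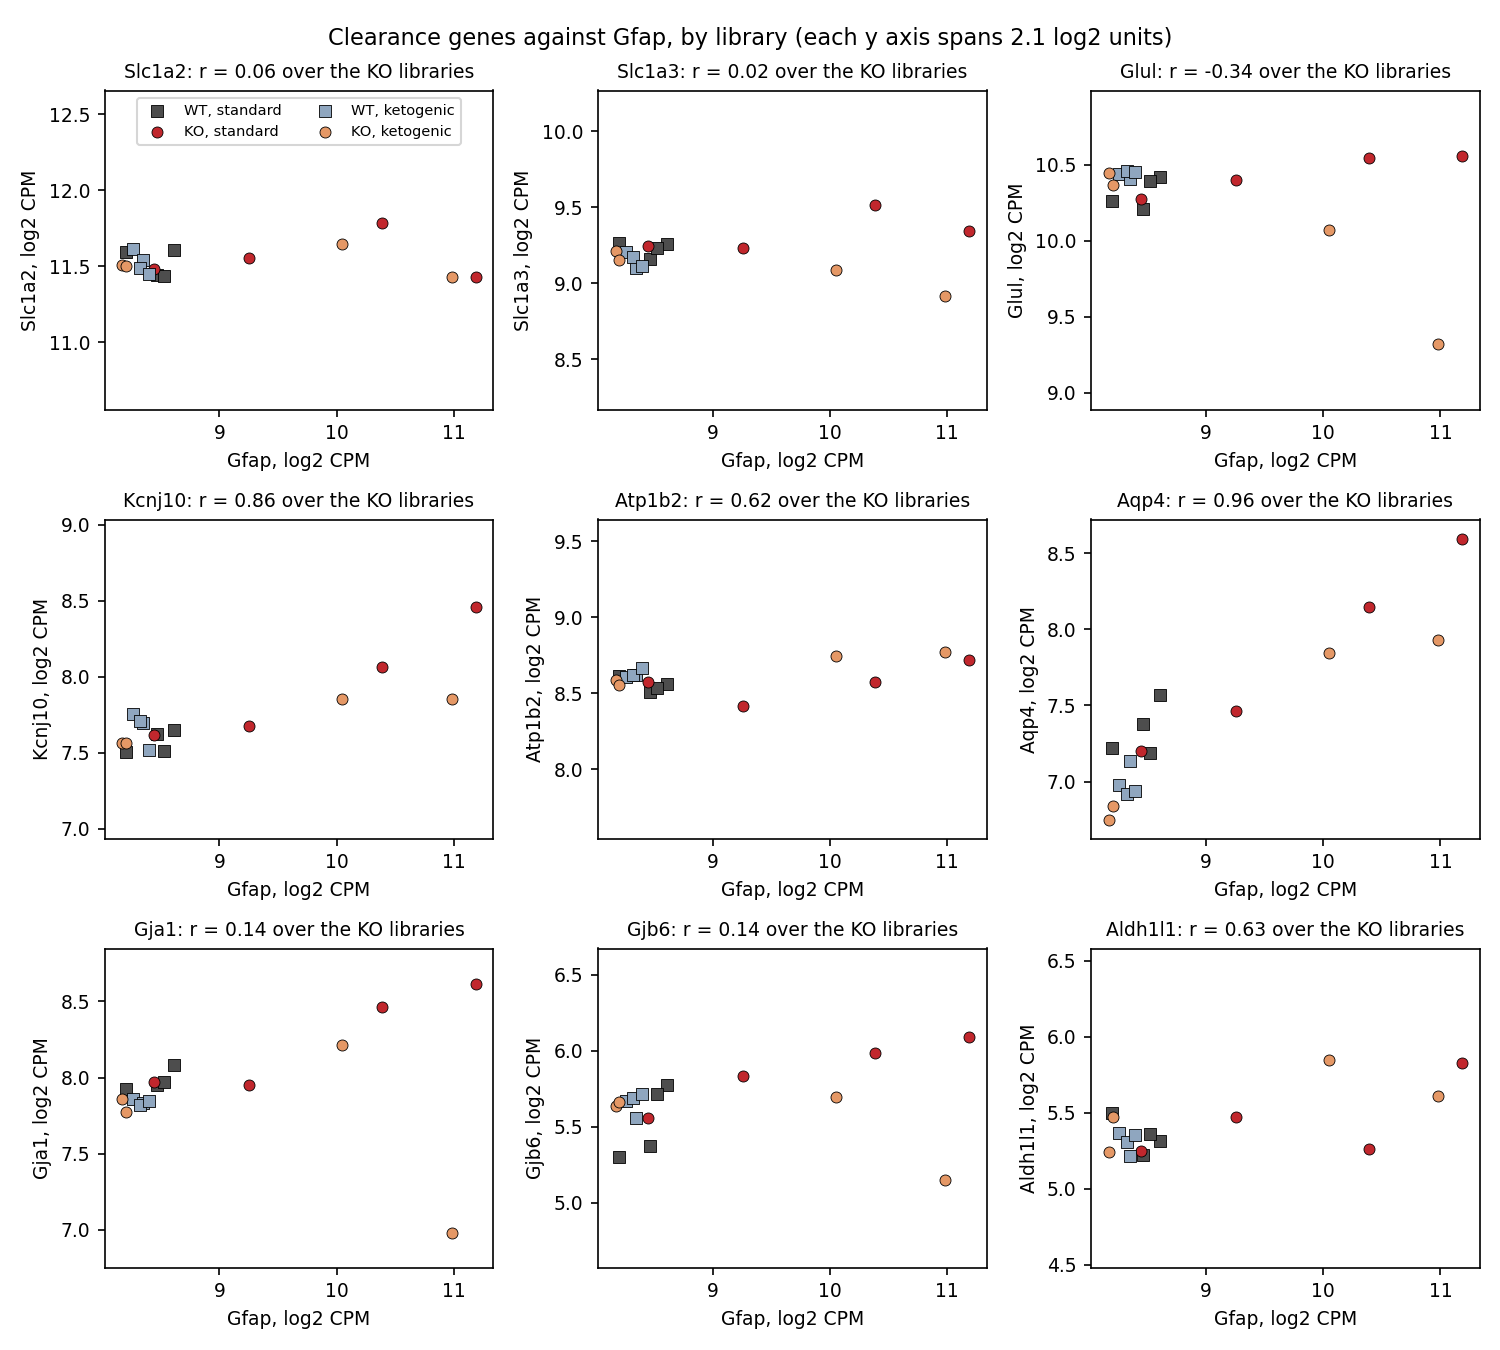
Log2 CPM of each of the 9 genes (y axis, 2.1 log2 units in every panel) against log2 CPM of Gfap (x axis), with 1 point per library, squares for wild type and circles for knockout. Aqp4 and Kcnj10 follow Gfap over the 8 knockout libraries (r = 0.96 and 0.86). KC913RR, the ketogenic circle farthest to the right, lies far below the other libraries for Glul and Gja1. For Gjb6 it is also the lowest, at 5.15 against 5.30 in wild type KC900RLL.

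A wider list of 30 genes of the same tasks was read beside the 9, and all 30 were tested. They included pump and channel subunits, scaffold proteins of the endfeet, GABA and amino acid transporters, volume-regulated channels and glutamate receptors of astrocytes. Between the diets in the knockout, 2 of the 30 were called, where 1.16% of all tested genes were, both lower on the ketogenic diet, and 12 of the 30 fold changes were above 0 with a median of -0.07. In the 3 other pairwise comparisons 0 of the 30 were called in edgeR and 1, for genotype on the standard diet, in DESeq2. All tested genes were called there at shares of 0.00572%, 0.0172% and 0.0114% in edgeR and 1.01%, 0.189% and 0.0687% in DESeq2, for genotype on the standard diet, genotype on the ketogenic diet and diet in wild type. In the same order 3, 2 and 4 of the 30 had an unadjusted p under 0.05 in edgeR. The shares of all tested genes at that limit were 14.3%, 9.22% and 5.46%.

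Slc12a2, which encodes the sodium-potassium-chloride cotransporter NKCC1, fell between the diets in the knockout. Its standard-diet levels in libraries labelled knockout ran from 95.6 CPM in KC888LL through 99.5 in KC872RL and 101 in KC873RR to 112 in KC893RL, and on the ketogenic diet from 63.3 CPM in KC916RRL through 66.7 in KC934R and 67.9 in KC913RR to 75.8 in KC935LL. These groups did not overlap, and the difference on the log2 scale was -0.58 ± 0.10 (SE) (edgeR, adjusted p = 0.0144). Averaged over the genotypes it was -0.45 ± 0.07 (SE) (edgeR, adjusted p = 0.00529). The call in the knockout was lost with Xist as a covariate, at a difference of -0.63 (adjusted p = 0.0588), and among the libraries with Xist above 100 CPM, at -0.60 (adjusted p = 0.245). The averaged call was lost among the latter, at -0.42 (adjusted p = 0.169). NKCC1 is also made by the choroid plexus and oligodendrocyte lineage. The 9 choroid plexus and ependymal markers summed to 60.1 to 571 CPM in the knockout on the standard diet and to 39.4 to 64.1 CPM on the ketogenic diet, and the part of these cells was not tested.

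Mlc1, a membrane protein of astrocyte endfeet whose loss causes a leukodystrophy, also fell between the diets in the knockout. Libraries labelled knockout ran on the standard diet from 172 CPM in KC888LL through 189 in KC893RL and 230 in KC873RR to 252 in KC872RL, and on the ketogenic diet from 133 CPM in KC913RR through 145 in KC935LL and 162 in KC916RRL to 172 in KC934R. KC888LL, at 172.2 CPM, lay just above KC934R, at 171.8 CPM, so these groups did not overlap. Of the 30 genes, 5 had groups that did not overlap, as did 6.39% of all tested genes. For Mlc1 the difference on the log2 scale was -0.46 ± 0.10 (SE) (edgeR, adjusted p = 0.0337). The call was lost when KC872RL, KC873RR, KC913RR, KC916RRL or KC935LL was left out, at differences of -0.37, -0.42, -0.40, -0.49 and -0.44 in that order (adjusted p = 0.136, 0.124, 0.0943, 0.0569 and 0.0710). It was also lost when only the 2 knockout groups were fitted, at -0.47 (adjusted p = 0.230), with Xist as a covariate, at -0.32 (adjusted p = 0.251), and among the libraries with Xist above 100 CPM, at -0.24 (adjusted p = 0.740).

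The other genes of the list named here were not called. On the standard diet the chloride channel gene Lrrc8a and Mlc1 had the smallest p-values on the higher side, at 0.35 ± 0.09 (SE) and 0.31 ± 0.10 (SE) on the log2 scale in knockout against wild type (edgeR, adjusted p = 0.192 and 0.210). The GABA transporter gene Slc6a11 stood at -0.31 ± 0.15 (SE) (edgeR, adjusted p = 0.353). Without KC888LL, where 5.73% of all tested genes were called, these 3 were called, at 0.37, 0.39 and -0.47 in the same order (adjusted p = 0.0364, 0.0195 and 0.0392), and Lrrc8a was also called in DESeq2 (adjusted p = 0.0460). Without KC872RL Slc6a11 stood at -0.20. On the ketogenic diet the amino acid transporter gene Slc1a4 and the potassium channel gene Kcnma1 stood at 0.31 ± 0.10 (SE) and 0.31 ± 0.15 (SE), and Slc12a2 and the bicarbonate cotransporter gene Slc4a4 at -0.26 ± 0.10 (SE) and -0.15 ± 0.08 (SE) (edgeR, adjusted p from 0.416 to 0.575). Without KC913RR the values of Slc1a4 and Slc4a4 were 0.16 and -0.07, and without KC846L that of Kcnma1 was 0.12. Between the diets in the knockout, Slc1a4 stood at 0.27 ± 0.10 (SE) and the transaminase gene Got1 at 0.15 ± 0.06 (SE) (edgeR, adjusted p = 0.169 and 0.222), and without KC913RR Slc1a4 stood at 0.12. In wild type, the potassium channel gene Kcnk1 and Lrrc8a stood at 0.20 ± 0.12 (SE) and 0.11 ± 0.09 (SE), and Slc12a2 and the glutamate receptor gene Grm3 at -0.32 ± 0.10 (SE) and -0.39 ± 0.13 (SE) (edgeR, adjusted p from 0.761 to 0.986). Kcnk1 stood at 0.08 without KC846L, and Lrrc8a at 0.05 without KC894RLL.

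The 16 libraries differ in group, depth and cell makeup. Across them, the 9 genes formed 36 pairs. Pearson r of log2 CPM ran from -0.48 for Glul and Atp1b2 to 0.86 for Kcnj10 and Aqp4. Slc1a3 and Gja1 had an r of 0.81, Gja1 and Gjb6 0.80, and Glul and Gjb6 0.73, whereas Glul and Aqp4 had -0.21. Over 11934 genes with a mean of at least 5 CPM, the gene most like Aqp4 was Vim (r = 0.95), and the gene most like Slc1a3 was Apoe (r = 0.95). Gja1 was most like Asrgl1 and Sfxn5 (r = 0.96 for both), Glul like Selenop (r = 0.94) and Klhdc7a (r = 0.93), and Gjb6 like Pnpla2 (r = 0.93) and Inppl1 (r = 0.92). Kcnj10 was most like Eif2ak2 (r = 0.94) and the complement gene C1qb (r = 0.92), Aldh1l1 like Tac1 (r = 0.90) and Pid1 (r = 0.89), and Atp1b2 like Ucp2 (r = 0.83) and Pabpc1 (r = 0.81). Slc1a2 had the weakest best match, Gm45871 at r = 0.80, followed by Gm37928 at 0.77, while the second matches of Aqp4 and Slc1a3 were Vwa5a and Efcab2 (r = 0.93 for both).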

How the data were processed

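RNA from the hippocampus of 16 mice was sequenced. The deposited table holds whole-number counts per gene for 49315 Ensembl genes, which the authors did not normalize, as read from the values. The genome build mm10 and DESeq2 are named in the submitters' processing notes; the aligner, counter, annotation and use of strand are not given in the sources used here. The columns name animal, genotype and diet without a replicate number, so each column was assigned to its group only. Nothing in the labels says how the tissue was dissected, and p-values measure the spread between these animals. A total of 174 rows had no gene symbol.

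The counts were fitted in edgeR 4.0.16 (R 4.3.3) with TMM factors, filterByExpr by group, 1 coefficient per group over all 16 libraries (12 residual degrees of freedom) and robust quasi-likelihood tests, two-sided, with Benjamini-Hochberg adjustment over the 17469 tested genes. CPM are per effective library size, RPKM divide them by the merged exon length in GENCODE M21 on GRCm38 (48970 of the 49315 identifiers matched), and log2 CPM use a prior count of 2. Exact permutation tests of correlations were two-sided and were adjusted over all tested genes, not over the 9 genes as first planned. Antisense genes overlap exons of Slc1a2 (Gm13872, 189 bases) and Aldh1l1 (Gm15756, 499 bases), and Teddm2 overlaps Glul by 116 bases on the opposite strand, so without strand their reads cannot be told apart. The pseudogene Glns-ps1 resembles Glul (96.8% over 1126 bases) and held 125 counts in all libraries.

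The members and all gene lists were chosen with earlier results of these data known. Named genes were the 9 members, Kcna1, Gfap, the called genes of the wider list, the 2 of it with the smallest p in each direction of each pairwise comparison, and the 2 genes most like each member with at least 5 CPM; 1 gene that this rule picked is not reported here. The hippocampal markers Prox1, Wfs1, Zbtb20 and Neurod6 were picked after the data were seen. The marker lists used were general and reactive astrocytes, neurons, microglia, oligodendrocytes and their precursors, endothelium, choroid plexus and ependyma, blood and thalamus. Alternatives were DESeq2 size factors in edgeR, no low-count filter, no robust estimation, Xist as a covariate, DESeq2 1.42.0, only the groups compared and each library left out. Those with Xist above 100 CPM, or without Y-linked expression, were added after seeing the data. The set with Xist above 100 CPM holds only KC893RL and KC888LL of the libraries labelled knockout on the standard diet. The fit was tested on simulated data with known changes in the genotype comparisons, and none were simulated for diet or the interaction.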

Additional observations from a re-analysis of the deposited data

Results flagged for a closer look

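Gjb6 in KC913RR was the 1 value, among the 36 combinations of the 9 genes and the 4 groups, that lay far from the other libraries of its group. It stood at 35.5 CPM, against 49.6 to 51.8 CPM in the other 3 knockout libraries on the ketogenic diet. The gap was 0.863 of the range of the group, above Dixon's 95% critical value for a group of 4. Chance gives such a gap in about 1 in 20 groups. Glul (640 CPM) and Gja1 (126 CPM) were also lowest in this library, with gaps to the next library below the critical value.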

How the results depend on the processing

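Over all alternatives 0 of the 9 genes were called, apart from Kcnj10 for genotype on the standard diet without KC888LL (0 to 1 genes over the libraries left out) and Slc1a3 for diet in the knockout without KC888LL (0 to 1 genes) and in DESeq2 (1 gene). The cause was not tested. The count of calls over all genes moved far more. For genotype on the standard diet 1 call became 18 without the low-count filter, 2 with Xist as a covariate, 177 in DESeq2, 0 with only the groups compared, 0 among libraries with Xist above 100 CPM and 0 to 1016 with 1 library left out. For genotype on the ketogenic diet 3 calls became 11 without the filter, 5 without robust estimation, 33 in DESeq2, 1 among libraries with Xist above 100 CPM and 1 to 13 with 1 library left out. For diet in the knockout 202 calls became 7 with Xist, 677 in DESeq2, 9 with only the groups compared, 3 among libraries with Xist above 100 CPM and 28 to 1096 with 1 library left out. For diet in wild type 2 calls became 0 without robust estimation, 1 with Xist, 12 in DESeq2, 11 with only the groups compared, 0 among libraries with Xist above 100 CPM and 0 to 3 with 1 library left out. For the interaction 0 calls became 2 without the filter and 7 in DESeq2. For the averaged genotype 17 calls became 71 without the filter, 45 without robust estimation, 416 in DESeq2, 1 among libraries with Xist above 100 CPM and 6 to 880 with 1 library left out. For the averaged diet 157 calls became 74 with Xist, 432 in DESeq2, 1 among libraries with Xist above 100 CPM and 51 to 457 with 1 library left out. The highest counts came without KC888LL for genotype on the standard diet, diet in the knockout and both averaged comparisons.

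Of the log2 fold changes and correlations of the 9 genes, 64 of the values under an alternative changed sign, and the cause was not tested. With Xist as a covariate, Atp1b2 became -0.021 for genotype on the standard diet, Slc1a2 0.0068 and Gja1 0.011 for genotype on the ketogenic diet, and Aqp4 0.27 for the interaction. Among the libraries with Xist above 100 CPM, Atp1b2 became -0.061 and Aldh1l1 -0.0028 for genotype on the standard diet and Kcnj10 -0.0016 on the ketogenic diet. For diet in the knockout Slc1a2 became 0.0026, Kcnj10 0.069 and Aqp4 0.11, and the interaction of Aqp4 became 0.37. For the averaged genotype Slc1a3 became -0.021, Atp1b2 -0.0031 and Gja1 -0.023, and for the averaged diet Slc1a2 became 0.027, Kcnj10 0.12 and Gjb6 0.0046.

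With 1 library left out, the fold changes for genotype on the standard diet ran from -0.029 to 0.093 for Slc1a2, -0.032 to 0.071 for Atp1b2 and -0.021 to 0.19 for Aldh1l1. On the ketogenic diet they ran from -0.046 to 0.031 for Slc1a2, -0.097 to 0.0034 for Slc1a3, -0.0076 to 0.096 for Kcnj10, -0.25 to 0.13 for Gja1 and -0.16 to 0.0093 for Gjb6. For diet in the knockout they ran from -0.087 to 0.034 for Slc1a2 and -0.020 to 0.23 for Aldh1l1, and in wild type from -0.025 to 0.034 for Slc1a2 and -0.084 to 0.011 for Aldh1l1. The interaction ran from -0.092 to 0.030 for Slc1a2, -0.030 to 0.074 for Atp1b2 and -0.37 to 0.14 for Aqp4. The averaged genotype ran from -0.014 to 0.047 for Slc1a2 and -0.0018 to 0.058 for Slc1a3, and the averaged diet from -0.042 to 0.019 for Slc1a2, -0.14 to 0.0085 for Kcnj10 and -0.030 to 0.096 for Aldh1l1.

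The number of the 9 genes at an unadjusted p under 0.05 for the correlation with Gfap was 2, became 4 without the libraries with Y-linked expression and ran from 2 to 4 with 1 library left out. Without the Y-linked libraries r became -0.0038 for Slc1a2, -0.85 for Slc1a3, -0.52 for Gja1 and -0.58 for Gjb6, and as deviations from the diet means it became -0.19 for Slc1a3. With 1 library left out it ran from -0.27 to 0.33 for Slc1a2, -0.24 to 0.51 for Slc1a3, -0.61 to 0.25 for Glul, -0.18 to 0.96 for Gja1 and -0.20 to 0.88 for Gjb6.

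No paired analysis was possible because the columns of the count table carry no replicate number. With 4 animals a group, the confidence intervals of Aqp4 and Gja1 span changes in either direction in most comparisons, and a missed threshold does not show that levels were alike. Over all alternatives the number of the 9 genes at an unadjusted p under 0.05, with the share of all tested genes beside it, ran from 0 to 3 (3.07% to 21.3%) for genotype on the standard diet, 0 to 2 (6.44% to 13.04%) on the ketogenic diet, 1 to 5 (5.998% to 21.8%) for diet in the knockout and 0 to 3 (3.37% to 8.42%) in wild type. It ran from 0 to 2 (3.05% to 11.48%) for the interaction, 0 to 3 (6.11% to 20.5%) for the averaged genotype and 1 to 3 (6.54% to 18.5%) for the averaged diet.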

Other observations

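Members of the 10 reactive astrocyte markers that could be tested summed to between 386 and 513 CPM over both wild type groups. Libraries labelled knockout gave sums of 2905 CPM in KC872RL, 1648 in KC873RR, 797 in KC893RL and 456 in KC888LL on the standard diet, and to 2522 CPM in KC913RR, 1296 in KC934R, 402 in KC935LL and 392 in KC916RRL on the ketogenic diet. All 10 had fold changes above 0 for genotype on both diets, with medians of 0.99 and 1.42 on the log2 scale, and 0 of them were called in edgeR, as against 0.00572% and 0.0172% of all tested genes. At an unadjusted p under 0.05 there were 4 and 6, and 14.3% and 9.22% of all tested genes. The 9 clearance genes, of which Slc1a2 was the largest part by CPM, summed to between 5002 CPM in KC913RR and 7130 CPM in KC873RR.

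Precursor markers of oligodendrocytes summed to 615 CPM in KC872RL and to between 223 and 333 CPM in the other 15 libraries. Blood genes summed to between 17.4 and 32.5 CPM in the knockout on the ketogenic diet and to between 42.7 and 113 CPM in the other 12 libraries, and 4 of the 5 tested blood genes were called lower between the diets in the knockout, where 1.16% of all tested genes were called. Endothelial markers lay between 291 and 424 CPM and neuronal markers between 8229 and 10434 CPM over all 16 libraries. The 7 thalamus markers summed to 108 to 264 CPM.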
